A study of Rattus norvegicus with 8 samples.

Results

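Domains leaning to injury are stretches of the rat genome in which H3K27ac peaks of cut and of sham-operated sciatic nerve lie close together, and in which the peaks of the cut nerve cover at least 2 times as many base pairs. To find them, the peaks of both conditions were pooled and linked along each chromosome whenever the next peak began at most 12.5 kb after the furthest end so far. This gave 16558 domains. Of these, 2124 were mid-size and shared, meaning that they held 5 to 9 peaks in all with at least 1 from each condition. In 684 of the 2124 (32.2%) the summed width of the injury peaks was at least 2 times that of the sham peaks, and these 684 are described here. With the conditions exchanged, 402 domains (18.9%) leaned to sham, and 1038 leaned to neither.

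The tissue was sciatic nerve of male Sprague Dawley rats that had surgery at postnatal day 25 and are labelled postnatal day 28. In the injury group the nerve of 1 leg was cut, and in the sham group only the skin of the opposite leg was opened, so that by the labels the sham nerve came from rats whose other nerve had been cut. The nerve below the operated site was collected 72 h later, and each condition had 2 H3K27ac samples (1 antibody throughout) and 2 inputs. Each condition was deposited as 1 peak list, without peak heights or values per sample, so the depth is unknown, the number of animals per sample is not known here, no replicate error can be given, and the values below describe lists. Whole nerve was profiled, so a smaller number of cells of a type and less acetylation per cell cannot be told apart. The tissue label was not checked against marker genes, since peaks were not assigned to genes.

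H3K27ac is acetylation of histone H3 at lysine 27, a mark laid down by the coactivators p300 and CBP at active promoters and enhancers. Enhancers that lie close together are often read as one domain, and such clusters tend to lie near genes that define a cell type. In a cut nerve the distal axons degenerate, Schwann cells give up the myelinating state for a repair state, and macrophages enter. The rat sciatic nerve is a standard model for this change.

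In the domains leaning to injury, the injury peaks summed to a median of 2296 bp per domain (797 to 14097) and the sham peaks to a median of 597 bp (199 to 4295). Together the 684 domains held 2966 injury peaks covering 1783 kb and 1337 sham peaks covering 455 kb, a ratio of 3.92. The ratio within a domain had a median of 3.61, quartiles of 2.56 and 6.77 and a maximum of 31.6. The domains were chosen by these widths, which are therefore given as a description, with no test. The median span from the first to the last peak was 11.4 kb (1.40 to 44.7), against 9.40 kb in domains leaning to neither and 10.1 kb in domains leaning to sham.

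**Figure D1:**
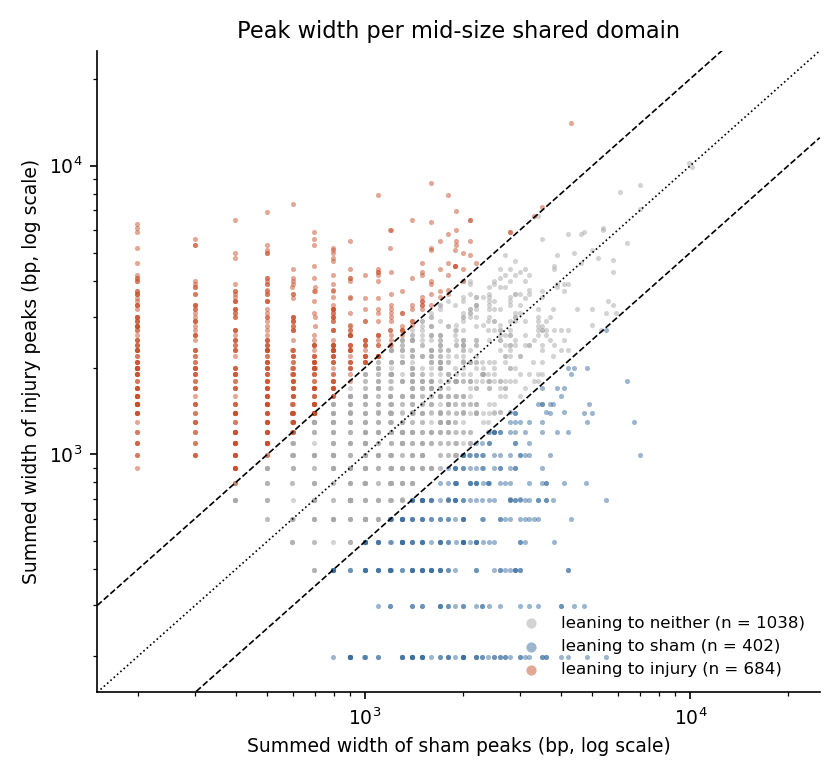
Summed width of sham peaks (x axis, bp) and of injury peaks (y axis, bp) in each of the 2124 mid-size shared domains, both on log scales. Each point is a domain, the dashed lines mark a ratio of 2 in either direction and the dotted line equal width; the 684 domains leaning to injury lie on or above the upper dashed line, and points at the same grid width stack in columns.

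The injury list as a whole covered 1.28 times the base pairs of the sham list. With widths scaled by these totals, 515 domains leaned to injury and 523 to sham, so the larger number of domains leaning to injury (684 against 402) held for unscaled widths only. Many domains lay near the threshold: 75 had a ratio of 2 to 2.2, and 63 mid-size shared domains had 1.8 to just under 2. Just inside, with a ratio of exactly 2, stood domains on chromosome 7 at 116622001 to 116632399 (2196 bp of injury and 1098 bp of sham peaks), on chromosome 13 at 83746501 to 83749099 (1796 and 898 bp) and on chromosome 2 at 255041001 to 255058999 (1596 and 798 bp). Just outside stood domains on chromosome 10 at 38883201 to 38891799 (3996 and 1999 bp), on chromosome 5 at 155527301 to 155544699 (1395 and 699 bp) and on chromosome 11 at 38316201 to 38321599 (796 and 399 bp). Every deposited width is 1 bp short of a multiple of 100, and counting both end bases gave 688 domains in place of 684. Positions are on Rnor_5.0 and 1-based, and widths are end minus start as in the files.

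Most of these domains held both more and wider peaks in the injury list than in the sham list. Injury peaks outnumbered sham peaks in 609 of 684 domains (89.0%), their mean width was larger in 607 (88.7%), and both held in 532 (77.8%). In domains leaning to neither these shares were 35.3%, 55.3% and 8.96%. Such a difference is favoured by the rule, because the ratio of summed widths is the ratio of numbers times that of mean widths. The most common make-ups were 4 injury peaks with 1 sham peak and 3 with 2, each in 123 domains, followed by 4 with 2 in 81. A single sham peak stood in 236 domains, and 2 sham peaks in 293.

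The number and the width of peaks each carried part of the lean. In 280 domains (40.9%) the number of injury peaks alone reached 2 times the number of sham peaks while the mean width did not. In these the widest injury peak had a median of 699 bp, and the domains spanned a median of 12.3 kb. In 161 domains (23.5%) the mean width alone reached a ratio of 2. These were shorter, with a median span of 8.80 kb, and their widest injury peak had a median of 1399 bp. Number and width each reached 2 in 142 domains (20.8%), where the median ratio was 9.90, and in the others (14.8%) only their product did. In 40 domains the injury peaks were fewer than the sham peaks and wide enough to outweigh them, with a widest injury peak of 1849 bp at the median. The reverse held in 63 domains, where injury peaks were narrower on average and more numerous.

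The sham peaks of these domains mostly overlapped injury peaks, and the injury peaks lay mostly apart from sham peaks. Of the 1337 sham peaks, 1016 (76.0%, 95% Wilson interval 73.6 to 78.2) overlapped an injury peak by at least 1 bp, against 46.5% over the whole sham list. Of the 2966 injury peaks, 895 (30.2%, 28.5 to 31.9) overlapped a sham peak, against 39.7% over the whole injury list. In domains leaning to sham the shares were exchanged, with 27.5% of sham peaks and 73.9% of injury peaks overlapping the other list. The rule favours such shares, because it asks for few or narrow sham peaks beside many or wide injury peaks.

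Peaks of the domains leaning to injury thus fell into 4 kinds. Injury peaks that overlapped a sham peak were the widest, with a median of 699 bp, quartiles of 399 and 1299 bp and 33.1% over 1 kb. Over the whole list, injury peaks that overlapped a sham peak had a median of 499 bp, with 19.2% over 1 kb. The 2071 injury peaks that overlapped none had a median of 299 bp, and 6.23% were over 1 kb. Through their number they held 921 kb, or 51.7% of the injury width of these domains. Over the whole injury list such peaks also had a median of 299 bp, and they held 45.6% of the width. Sham peaks that overlapped an injury peak had a median of 299 bp, and the 321 that overlapped none stood at the smallest width of the lists, 199 bp, in 67.3% of cases. Over the whole sham list, 50.1% of the peaks that overlapped no injury peak stood at that width. None of those 321 was over 1 kb.

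**Figure D2:**
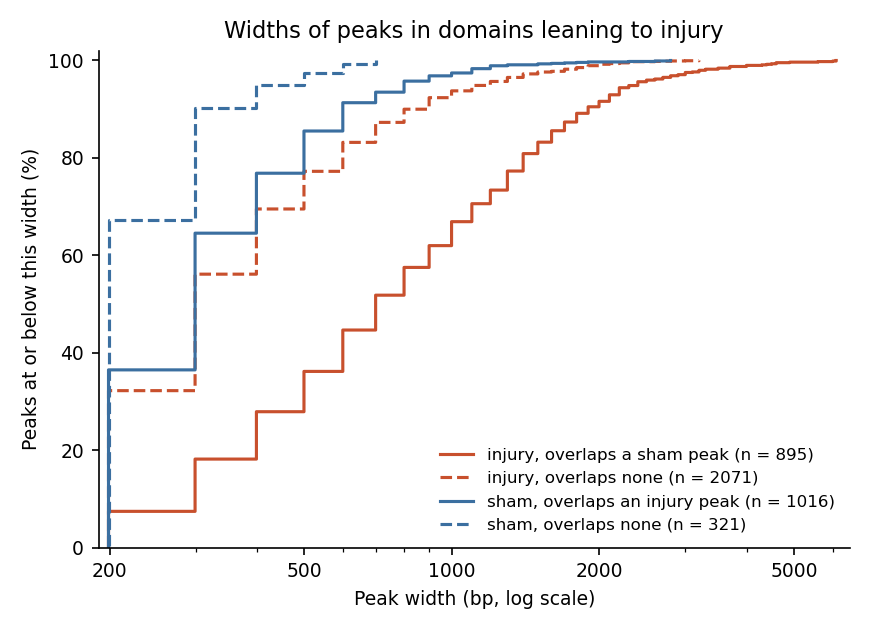
Cumulative distribution of peak width (x axis, bp, log scale) over the peaks of the 684 domains leaning to injury, as the percentage of peaks at or below each width (y axis). Lines are the 4 kinds of peak, by condition and by overlap with the other list; injury peaks that overlap a sham peak (solid red, n = 895) are the widest and sham peaks that overlap none (dashed blue, n = 321) the narrowest.

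At sites of these domains called in both conditions the injury peak commonly ran past the sham peak. There were 767 sites at which 1 injury peak met 1 sham peak and no other. The injury peak was wider at 609 of them (79.4%), equal at 97 and narrower at 61, with medians of 599 bp for injury and 299 bp for sham. At 285 sites (37.2%) it ran past both ends of the sham peak, adding a median of 700 bp over both sides, and at 215 past 1 end while the other was the same. Borders were identical at 45 sites, and at 182 the peaks were shifted against each other. Over all 9992 such sites of the lists the injury peak was wider at 44.2% and ran past both ends at 15.3%. The rule favours this difference, because it asks for a larger summed injury width. In domains leaning to sham the injury peak ran past both ends at 13 of 443 sites (2.93%). It lay within the sham peak at 243 of them (54.9%). A further 111 injury peaks of the domains (3.74%) each covered parts of 2 or more sham peaks, near the 3.48% of the whole injury list. Of the sham peaks, 9 (0.673%) did so with injury peaks, against 2.83% of the whole sham list.

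By the placing of the sham peaks, 421 domains (61.5%) held only sham peaks that overlapped an injury peak by at least 1 bp. In 181 (26.5%) some sham peaks did so and others did not, and in 82 (12.0%) no sham peak met an injury peak. In domains leaning to neither these shares were 29.1%, 66.4% and 4.53%. Those domains held a median of 3 sham peaks, against 2 in domains leaning to injury. The rule favours few sham peaks, and the 236 domains with a single sham peak could not hold sham peaks both with and without an overlap. The 421 had a median ratio of 4.01 and a median span of 9.70 kb. In the 82 without any overlap the sham side was usually a single narrow peak, with a median summed width of 299 bp against 1694.5 bp for injury, and the span was longer, at 15.2 kb. The ends of a domain were set by injury peaks on both sides in 446 domains (65.2%) and by sham peaks on both sides in 3. They were set by 1 of each in 166, and in 69 at least 1 end was common to both lists. In domains leaning to neither, injury peaks set both ends in 16.0% and sham peaks in 18.5%. Injury peaks at the ends are favoured by the rule, because it favours many injury and few sham peaks. Injury peaks that overlapped no sham peak lay a median of 3801 bp from the nearest one, with 26.3% within 1 kb. In domains leaning to neither the median was 901 bp, with 51.3% within 1 kb. Over the whole injury list it was 12901 bp, with 21.1% within 1 kb. Every shared domain holds a sham peak by the rule, which limits this distance.

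The authors' deposited tables of differential peaks name sites they scored as different between the conditions, and most of these domains held none. An injury peak listed there as differential stood in 281 of 684 domains (41.1%, 37.5 to 44.8), against 19.0% of all mid-size shared domains, 10.5% of those leaning to neither and 3.23% of those leaning to sham. Since the tables come from the same contrast as the widths, these shares are descriptions. Exactly 1 such peak stood in 189 domains, 2 in 71 and 3 or more in 21. Counted by peak, 403 of the 2966 injury peaks (13.6%) overlapped the deposited differential table, close to the share of the whole injury list (13.5%). In the other mid-size shared domains the share was lower, at 4.09% in those leaning to neither and 1.85% in those leaning to sham. Among injury peaks that overlapped no sham peak the share was 18.9% in domains leaning to injury and 22.0% over the list. It was 10.6% in domains leaning to neither and 7.11% in those leaning to sham. The listed peaks made up 11.2% of the injury base pairs, and with them taken out the ratio stayed at 2 or more in 632 of the 684 domains, 229 of them among the 281 that held one.

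Domains with a listed peak had a higher width ratio, at a median of 4.61 against 3.01 in the 403 without. Listed injury peaks are themselves counted in the injury width, so they raise this ratio by construction. Of those that reached a ratio of 2 through the number of peaks alone, 144 of 280 (51.4%) held one, and of those that did so through mean width alone, 34 of 161 (21.1%). The first class held a median of 5 injury peaks per domain and the second a median of 3. A domain with more injury peaks has more that can be listed, so the shares are not alike in this, and their difference was not tested. Among the 40 domains with fewer injury than sham peaks, which held a median of 2 injury peaks, 3 held a listed peak. By total number of peaks the share ran from 33.5% of the 269 domains with 5 peaks to 52.5% of the 59 with 9. The same limit holds here, since larger domains have more peaks that can be listed. In the opposite direction, 29 sham peaks (2.17%) overlapped the authors' deposited sham table. The share was 4.79% in domains leaning to neither and 11.7% over the whole sham list. The 29 peaks stood in 29 domains (4.24%), against 17.2% of all mid-size shared domains that held one. All 29 were among the sham peaks that overlapped no injury peak, of which they made up 9.03%, against 21.8% over the list. Nearly all differential peaks of the whole lists likewise overlapped no peak of the other condition. These were 3278 of 3290 for sham and 4240 of 4310 for injury. Both the injury and the sham kind of differential peak stood in 15 domains leaning to injury.

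The domain with the most injury base pairs lay on chromosome 6 at 155913201 to 155928299 and leaned through width. Its 3 injury peaks, of 5999, 4399 and 3699 bp, covered 14097 bp of a span of 15.1 kb. Its 5 sham peaks, of 1099, 2299, 199, 199 and 499 bp, all overlapped them, and no peak was listed as differential in the authors' deposited tables. The stretch called almost end to end in injured nerve was thus called in sham nerve as 5 separate, mostly short peaks. Within 100 kb outside it, injury peaks covered 32057 bp and sham peaks 2592 bp.

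The other 4 of the 5 domains with the most injury base pairs combined a wide shared site with peaks called in injury only. On chromosome 6 at 120140801 to 120153799, a 2799 bp injury peak covered both sham peaks (299 and 1299 bp) and 6 further injury peaks followed, of which those of 1099 and 2599 bp were in the authors' deposited injury table. On chromosome 7 at 29448701 to 29464099, the only sham peak (1099 bp) touched 2 injury peaks, of 1399 and 1899 bp, beside an injury peak of 2999 bp that overlapped none. On chromosome 12 at 50300101 to 50323199, an injury peak of 4899 bp covered sham peaks of 1099 and 399 bp, and 4 of the other 5 injury peaks were listed as differential by the authors. On chromosome 13 at 78974401 to 78998999, an injury peak of 4299 bp covered a sham peak of 299 bp, and the ratio was 12.4.

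The 5 highest ratios all belonged to domains with a single sham peak at the smallest width of 199 bp. They were 31.6 on chromosome 11 at 35161401 to 35179099, 30.6 on chromosome 14 at 82084801 to 82092899, 29.6 on chromosome 1 at 3854501 to 3879099, 26.1 on chromosome 9 at 25968701 to 26001599, and finally 23.1 on chromosome 5 at 154811201 to 154825499. Each divides 4593 to 6294 bp of injury peaks by the least width a sham peak could have, so the ratio rests on 1 call. On chromosome 14 the sham peak lay inside an injury peak of 3199 bp that the authors' deposited table lists as differential. On chromosome 1 it met no injury peak: 8 injury peaks lay in the first part of the domain, and the sham peak lay alone at 24.4 kb from its start.

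**Figure D3:**
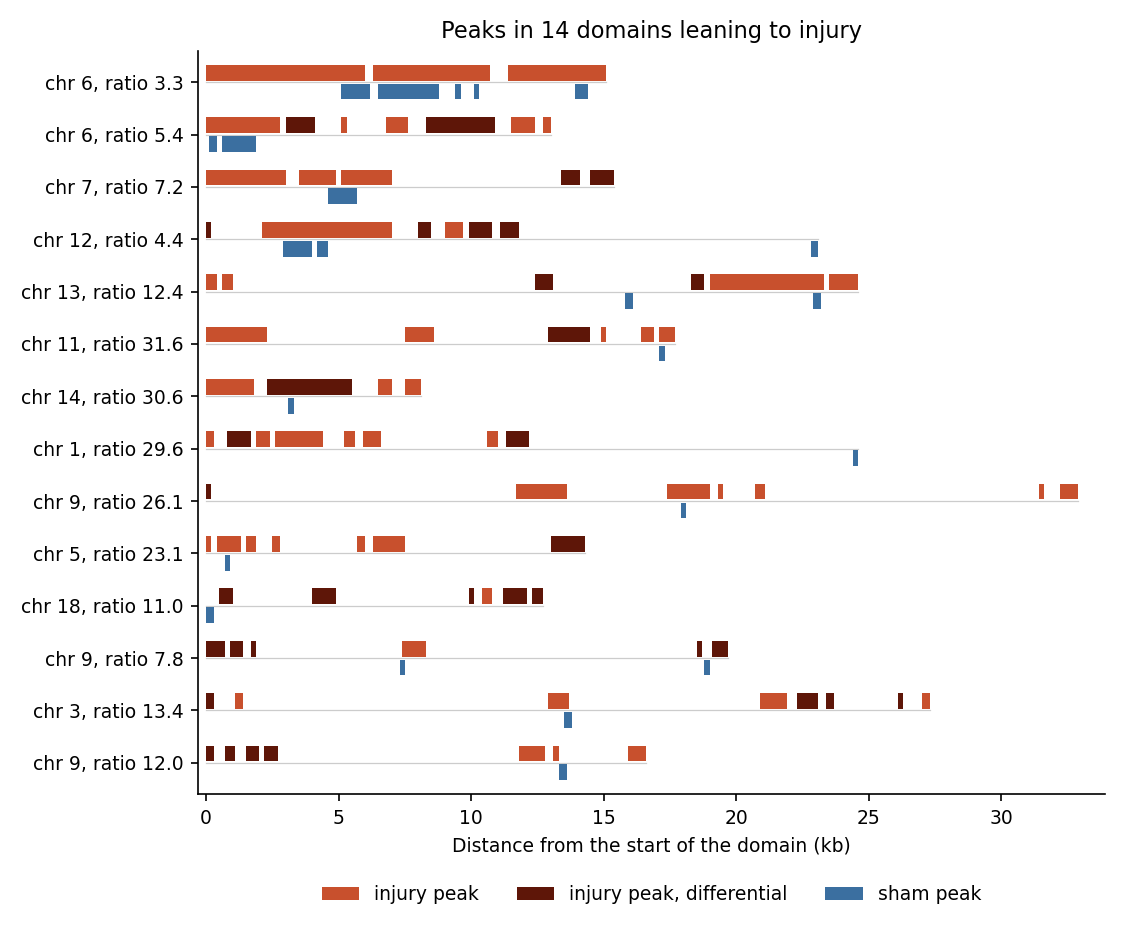
Peaks along 14 domains leaning to injury, namely those with the most injury base pairs, the highest ratios and the most differential injury peaks, ties broken by injury base pairs (1 domain is in 2 of these sets). The x axis is the distance from the start of the domain in kb; bars above each line are injury peaks (dark where the authors list them as differential), bars below are sham peaks, and each row is labelled with its chromosome and its injury to sham width ratio. Wide injury peaks above short sham peaks mark the rows at the top, and runs of narrow injury peaks those at the bottom.

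The most injury peaks listed as differential in 1 domain were 5, in 2 domains, and a further 5 domains held 4. In the domain on chromosome 18 at 63080401 to 63093099, 5 of 6 injury peaks were in the authors' deposited injury table, none was wider than 899 bp, and the sham peak of 299 bp met none of them. On chromosome 9 at 85529501 to 85549199, again 5 of 6 were listed in the deposited table, and the injury peak that was not listed, of 899 bp, was the one that overlapped a sham peak. Of the 5 domains tied at 4, the 3 with the most injury base pairs were the chromosome 12 domain above (4 of 6), with its wide shared site, chromosome 3 at 164263101 to 164290399 (4 of 8) and chromosome 9 at 99606501 to 99623099 (4 of 7). The widest injury peak of both latter domains was 999 bp. In the chromosome 9 domain the 4 listed peaks, of 299 to 499 bp, lay side by side at its start.

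Of the 29 domains with a differential sham peak, the 5 with the most injury base pairs each held 1. In 3 of them, on chromosomes 17 (82287601 to 82303899), 20 (44465601 to 44503899) and 13 (74002601 to 74014199), differential injury peaks were listed as well, so that peaks of both deposited tables of the authors stood inside 1 domain. On chromosome 13 the differential peaks of the opposite directions were neighbours, the sham peak of 199 bp at 74010101 to 74010299 and the injury peak of 999 bp at 74010401 to 74011399. In the other 2, on chromosomes 2 (215337001 to 215341399) and 3 (69042001 to 69051299), the listed sham peak of 199 bp stood at an end of the domain, and no injury peak was listed.

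In length the domains ranged from compact sites to loose chains. The 3 shortest, on chromosomes 19 (43972801 to 43974199), 1 (144590301 to 144591799) and 2 (209265801 to 209267299), spanned 1399 to 1499 bp with 3 injury and 2 sham peaks each, and their ratios were 2.002, 2.203 and 2.254. No peak in them was differential. The 3 longest, on chromosomes 1 (229219601 to 229264299), 8 (22512301 to 22550999) and 20 (44465601 to 44503899), spanned 44.7, 38.7 and 38.3 kb with 7 injury peaks each. The chromosome 8 chain held no peak wider than 499 bp.

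The surroundings of the domains leaned the same way. Peaks within 100 kb outside a domain were not used to choose it, though they come from the same lists, so the comparison is a description with no test. Some of these flanking peaks belong to other domains leaning to injury, since 80 neighbouring pairs of such domains lay at most 100 kb apart. The injury list as a whole also covered 1.28 times the base pairs of the sham list. Injury peaks covered more of that flank than sham peaks around 505 of the 684 domains (73.8%), against 570 of 1038 domains leaning to neither (54.9%) and 162 of 402 leaning to sham (40.3%). The injury share of the flanking peak base pairs had a median of 66.6% (quartiles 51.0 and 82.3) around domains leaning to injury, 53.9% (41.0 and 67.4) around those leaning to neither and 45.6% (27.2 and 61.9) around those leaning to sham. The medians were 2596 bp of injury and 1196 bp of sham peaks around domains leaning to injury, and 1646 and 1894 bp around those leaning to sham. The 3 distributions overlapped widely, and 139 domains leaning to injury (20.3%) had more sham than injury base pairs around them.

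**Figure D4:**
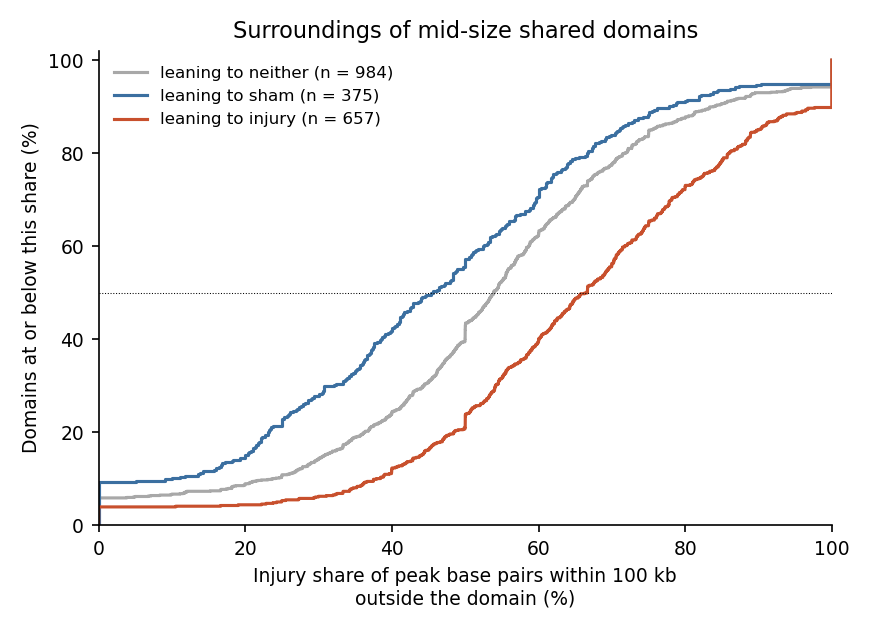
Cumulative distribution over domains (y axis, % of domains) of the injury share of all peak base pairs within 100 kb outside a domain (x axis, %), for mid-size shared domains leaning to injury (red), to neither (grey) and to sham (blue). Domains without any peak in the flank are left out; the red line lies to the right, with medians of 66.6%, 53.9% and 45.6% where the lines cross the dotted 50% line.

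The nearest other domain lay a median of 23.2 kb away. It held injury peaks only for 227 of the 684 domains (33.2%) and was shared with more injury than sham width for 239 (34.9%). For domains leaning to neither these were 236 of 1038 (22.7%) and 321 (30.9%), and for domains leaning to sham 84 of 402 (20.9%) and 86 (21.4%). The shares with a shared, injury-wider neighbour had overlapping 95% intervals in domains leaning to injury (31.5 to 38.6) and to neither (28.2 to 33.8). Of 663 pairs of domains leaning to injury that followed each other on a chromosome, 47 were at most 50 kb apart and 80 at most 100 kb. The median gap was 1584 kb, and whether this spacing differs from that of other domains was not tested.

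Domains leaning to injury were found on all 21 chromosomes with peaks. Their share of the mid-size shared domains ran from 25.4% on chromosome 1 (63 of 248, 20.4 to 31.2) to 42.2% on chromosome 13 (27 of 64, 30.9 to 54.4), and the intervals of these extremes overlapped. The largest numbers were 66 on chromosome 2 and 63 on chromosome 1. Chromosome X held 7 of 27 and was the only chromosome with more domains leaning to sham, at 8. The intervals of its 2 shares overlapped (13.2 to 44.7 and 15.9 to 48.5). All these counts use unscaled widths. With widths scaled by the list totals, 515 domains leaned to injury and 523 to sham over all chromosomes. Chromosomes 1 and 14 stand apart in the injury list, where 95.4% of their 5320 peaks fill the last 20% of the lines, against 19.5% in the sham list. The share of domains leaning to injury was 27.2% on these chromosomes (92 of 338, 22.7 to 32.2) and 33.1% on the others (592 of 1786, 31.0 to 35.4), and the part of the line order in this was not tested.

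**Figure D5:**
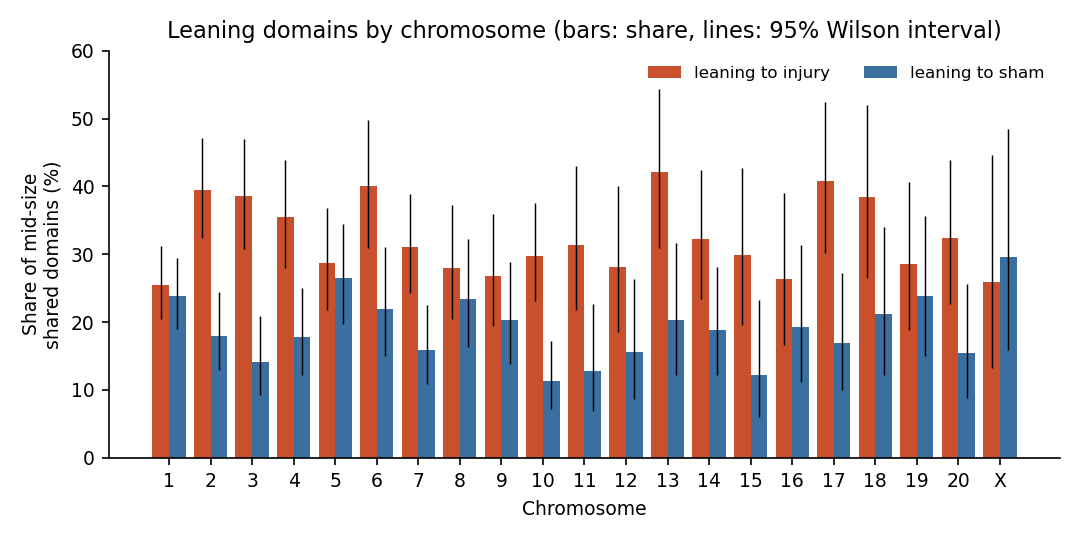
Share of mid-size shared domains that lean to injury (red) and to sham (blue) on each chromosome, in % (y axis, from 0); lines are 95% Wilson intervals, which cover counting error over domains only. With the unscaled widths used here, red exceeds blue on 20 of 21 chromosomes, with the exception of chromosome X.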

How the data were processed

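Each condition was deposited as 1 list of H3K27ac peaks and 1 list of differential peaks. The deposited columns hold no measurement but start and end positions in base pairs, with no intensity, fold or p-value. Per the submitters' processing notes, CASAVA 1.8.2, Bowtie and HOMER were used with the build Rnor_5.0, with no role stated. How peaks were called and thresholded, and how replicates and inputs were handled, was not given in the sources used here. A peak absent from a list was not called, which is no measured absence of acetylation.

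Blank lines were dropped and 8 peaks written with an exponent were read as whole numbers. Linking, overlap (at least 1 bp) and widths were computed in Python 3.11.15 with numpy 2.4.6, pandas 2.3.3 and scipy 1.17.1, and tested on 2000 simulated domains, where 300 of 300 built as members were recovered. Shares carry 95% Wilson intervals, which cover counting error over peaks or domains only. A peak was differential where it overlapped the list of its condition.

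No test was run, because the domains were chosen on the contrast between the lists. Members and lists were chosen with earlier results of these data known. Named domains are, by rule, the 5 with the most injury base pairs, the highest ratio and the most differential injury peaks, up to 5 with a differential sham peak, the 3 nearest to the threshold on each side, and the 3 longest and shortest, with ties broken by injury base pairs. Sequences and genes are not reported, since no Rnor_5.0 genome or annotation was used here and no coordinates were converted.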

Additional observations from a re-analysis of the deposited data

How the results depend on the processing

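No paired analysis was possible because the lists hold no value per sample, although the sample numbers 1 and 2 occur in both conditions. Leaving out a replicate was not possible either. The settings without chromosomes 1 and 14, with both end bases, with other flanks, and all other settings for domains leaning to sham, for the share of domains with a differential peak and for the flanks were chosen after seeing the data. The cause of the moves below was not tested beyond what each setting removes or adds by construction. With a link distance of 5 kb the median ratio was 3.38, 34.7% of injury peaks overlapped a sham peak and 82.3% of sham peaks an injury peak, 11.8% of injury and 1.24% of sham peaks were differential, and 34.4% of domains held a differential injury peak. At 25 kb, 27.3% of injury and 71.8% of sham peaks overlapped the other list, and the median widest peak was 899 bp against 999 bp. With a width ratio of at least 1.5 the median ratio was 2.89, 34.2% of injury peaks overlapped a sham peak, 12.2% were differential, and 35.7% of domains held one. With a ratio of at least 3, 432 domains leaned to injury and 229 to sham, the median ratio was 5.57, 24.0% of injury peaks overlapped a sham peak, 16.1% of injury and 3.13% of sham peaks were differential, 49.3% of domains held a differential injury peak, and the median injury share of the flanks was 69.1%. Without peaks at the smallest width, 437 domains leaned to injury and 237 to sham, 80.1% of sham peaks overlapped an injury peak, and the median widest peak was 1299 bp. Requiring 50% of the shorter peak gave overlaps of 27.01% for injury and 68.5% for sham peaks. Within 50 kb the injury share of the flanks was 70.0%. Of the 68 values under other settings, 40 stayed within 1.5 times the count or within the 95% interval of the value given above. More domains leaned to injury than to sham in each setting but the scaling by list totals (515 and 523).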
